A study of Mus musculus with 12 samples.

Results

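Lipolysis lipases and their regulators were examined as a set of 8 genes in inguinal white adipose tissue (iWAT), the fat pad under the skin in which beige adipocytes form upon cold. The genes were taken by symbol from the count table of all libraries: Pnpla2, Pnpla3, Lipe, Mgll, Abhd5, G0s2, Ces1d and Lipa. All 8 were among the 23420 genes of the table, and all 8 were among the 15306 genes that passed the filter on low counts.

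Adipocytes store triglyceride in lipid droplets and release it as fatty acids and glycerol by stepwise hydrolysis. Pnpla2 encodes ATGL, which removes the first fatty acid, Lipe encodes HSL, which acts on diglyceride, and Mgll encodes the lipase that splits monoglyceride. ATGL is switched on by its coactivator, encoded by Abhd5, and held back by the inhibitor encoded by G0s2, while noradrenaline released in the cold drives the cascade through β-adrenergic receptors, cyclic AMP and protein kinase A (PKA). Much of this control acts on proteins by phosphorylation, which read counts do not measure.

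RNA of whole iWAT was sequenced from 12 male C57BL/6 mice of 10 weeks, with 3 mice in each of 4 groups. All mice carried HIF2a loxP/loxP alleles. WT mice carried no Cre, and mice labelled HIF2α AKO carried Adipoq-Cre, which acts in adipocytes, so that Cre and the intended loss of HIF2α were always present together. Both genotypes were kept at thermoneutrality (TN), at 30 °C for 1 week, or in the cold, at 4 to 6 °C for 3 days, so that temperature and length of housing changed together.

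Gene counts summed to between 22368316 and 35204631 per library. Levels are given as CPM, counts relative to library size after scaling by the trimmed mean of M values (TMM). Epas1, which encodes HIF2α, stood at 372.6, 277.9 and 430.0 CPM in TN WT libraries and at 288.8, 394.2 and 360.0 in TN libraries labelled HIF2α AKO. In the cold it stood at 575.9, 562.0 and 742.8 CPM in WT libraries and at 985.7, 743.2 and 748.5 in those labelled HIF2α AKO. The genotypes overlapped at TN (log2 fold change of HIF2α AKO against WT -0.05, SE 0.20, edgeR adjusted p = 0.999), and in the cold the libraries labelled HIF2α AKO lay above those of WT (0.40, SE 0.20, edgeR adjusted p = 1). Epas1 counts of whole tissue were thus not lower under the AKO label. Because they cover the whole gene and all cell types of the tissue, they do not show whether the floxed part was lost in adipocytes. The paper itself reports lower Hif2a mRNA in adipose tissue of its knockout mice. Genotypes are given as labelled throughout. Ucp1, the uncoupling protein of thermogenic adipocytes, was between 0.204 and 3.85 CPM in the 6 TN libraries and between 2171 and 5897 in the 6 cold libraries. All 9 white adipocyte markers listed were detected in every library, and their summed level was lowest in TN WT replicate 2, at 10700 CPM, and TN HIF2α AKO replicate 1, at 14987 CPM, against 17471 to 25675 in the other 4 TN libraries and 19010 to 36811 in the cold. Skeletal muscle markers summed to 1945 CPM in TN HIF2α AKO replicate 2 and 1677 in cold HIF2α AKO replicate 1, and to at most 113 in the other 10 libraries. Epithelial markers summed to 214 CPM in TN WT replicate 3 and to at most 10.6 elsewhere. In whole tissue, fewer cells of a type and less RNA per cell cannot be told apart.

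The 8 genes lie on 7 chromosomes of the GRCm38 assembly, where positions follow GENCODE vM21. Pnpla2 lies at chr7:141455198-141460743 on the plus strand and Lipe at chr7:25379527-25398710 on the minus strand. Mgll lies at chr6:88724412-88828360 on the plus strand, Abhd5 at chr9:122351608-122381524 on the plus strand and G0s2 at chr1:193272161-193273217 on the minus strand. Pnpla3 lies at chr15:84167837-84187236 on the plus strand, Ces1d at chr8:93166068-93197838 on the minus strand and Lipa at chr19:34492318-34527474 on the minus strand. Annotated genes on the opposite strand overlap Pnpla3, Lipe, Mgll, Abhd5 and G0s2, and the strand setting of the count was not given in the sources used here, so reads of such pairs cannot be told apart. Ces1d belongs to a cluster of closely similar carboxylesterase genes, among which reads could have been split.

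Promoter sequences were looked at because most of these genes rose together in the cold, and because the study turns on a hypoxia-inducible factor and on PKA. RefSeq start sites on GRCm38.p6 gave 9 windows of 250 bases before the start for 7 of the 8 genes. The letters searched on both strands were ACGTG, the core that hypoxia-inducible factors bind, CACGTG, an E box that contains this core on either strand, TGACG, the short site bound by factors of the cyclic AMP pathway, and TGACGTCA, the full palindrome that contains the short site on either strand. The windows of Pnpla2, Pnpla3, Lipe, Mgll and G0s2 are shown because these genes carry the comparisons that follow, each 5′ to 3′ with matches to any of the 4 motifs in capitals. For Lipe and Mgll the window of the start site farther upstream is given.

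Pnpla2 (chr7:141454938-141455187, + strand): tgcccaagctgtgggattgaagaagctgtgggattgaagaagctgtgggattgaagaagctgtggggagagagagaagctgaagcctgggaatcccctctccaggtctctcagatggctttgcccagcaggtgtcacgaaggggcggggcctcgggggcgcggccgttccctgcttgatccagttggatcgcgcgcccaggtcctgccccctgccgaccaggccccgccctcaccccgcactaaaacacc
G0s2 (chr1:193273189-193273438, - strand): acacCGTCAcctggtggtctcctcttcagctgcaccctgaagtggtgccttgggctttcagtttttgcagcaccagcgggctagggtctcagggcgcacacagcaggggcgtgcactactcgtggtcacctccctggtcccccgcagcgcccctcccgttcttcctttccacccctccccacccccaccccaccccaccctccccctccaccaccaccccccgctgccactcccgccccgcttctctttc
Pnpla3 (chr15:84167566-84167815, + strand): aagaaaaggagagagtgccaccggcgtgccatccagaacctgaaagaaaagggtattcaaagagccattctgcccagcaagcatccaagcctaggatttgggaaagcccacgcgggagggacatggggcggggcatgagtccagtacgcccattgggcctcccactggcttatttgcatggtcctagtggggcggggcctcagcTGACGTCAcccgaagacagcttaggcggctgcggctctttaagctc
Lipe (chr7:25395988-25396237, - strand): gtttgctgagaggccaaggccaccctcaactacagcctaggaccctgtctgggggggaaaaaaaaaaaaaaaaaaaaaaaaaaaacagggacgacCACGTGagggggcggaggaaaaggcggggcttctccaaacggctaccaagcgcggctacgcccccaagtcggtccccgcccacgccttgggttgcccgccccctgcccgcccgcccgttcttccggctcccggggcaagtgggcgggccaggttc
Mgll (chr6:88724162-88724411, + strand): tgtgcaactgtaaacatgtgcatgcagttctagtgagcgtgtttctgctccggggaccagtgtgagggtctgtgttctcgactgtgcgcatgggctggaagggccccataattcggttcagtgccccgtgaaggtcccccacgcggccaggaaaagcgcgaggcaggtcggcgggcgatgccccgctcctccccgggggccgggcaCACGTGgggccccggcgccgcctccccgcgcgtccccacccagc

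The window of Pnpla2 held no match. The window of Pnpla3 held the full palindrome TGACGTCA, beginning 46 bases before the start, a sequence found in 1.55% of all 32851 windows of this length. CACGTG stood 155 bases before the upstream start of Lipe and 44 bases before the upstream start of Mgll, and 6.02% of all windows held it. ACGTG alone stood 158 bases before the other start of Mgll, so that 3 of the 9 windows, from 2 of the 7 genes, held ACGTG, against 16.6% of all windows. TGACG stood 246 bases before the start of G0s2 and 128 bases before that of Abhd5, so that 3 of the 9 windows, from 3 of the 7 genes, held it, against 17.8% of all windows. The 9 windows were 58.0 to 74.8% G and C, against a median of 52.4% over all windows, a difference that these shares do not take into account. The windows of Lipa and of the other Lipe start held no match. A match describes letters in a window and not a bound site.

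Between TN and cold, the question was which steps of triglyceride breakdown changed at the level of transcripts. Pnpla2, G0s2, Mgll, Abhd5, Ces1d and Lipa rose upon cold exposure in WT iWAT, whereas Lipe and Pnpla3 did not pass the test. These 6 of 8 genes compare with 15.6% of all tested genes that were called higher in the cold (edgeR's quasi-likelihood test, Benjamini-Hochberg adjusted p under 0.05 over 15306 genes). In iWAT labelled HIF2α AKO, Pnpla2, G0s2, Mgll, Abhd5 and Lipa rose, again against 15.6% of all tested genes. The median log2 fold change of the 8 genes was 1.33 in WT and 1.09 in HIF2α AKO, beside -0.03 and -0.05 over all tested genes.

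**Figure D1:**
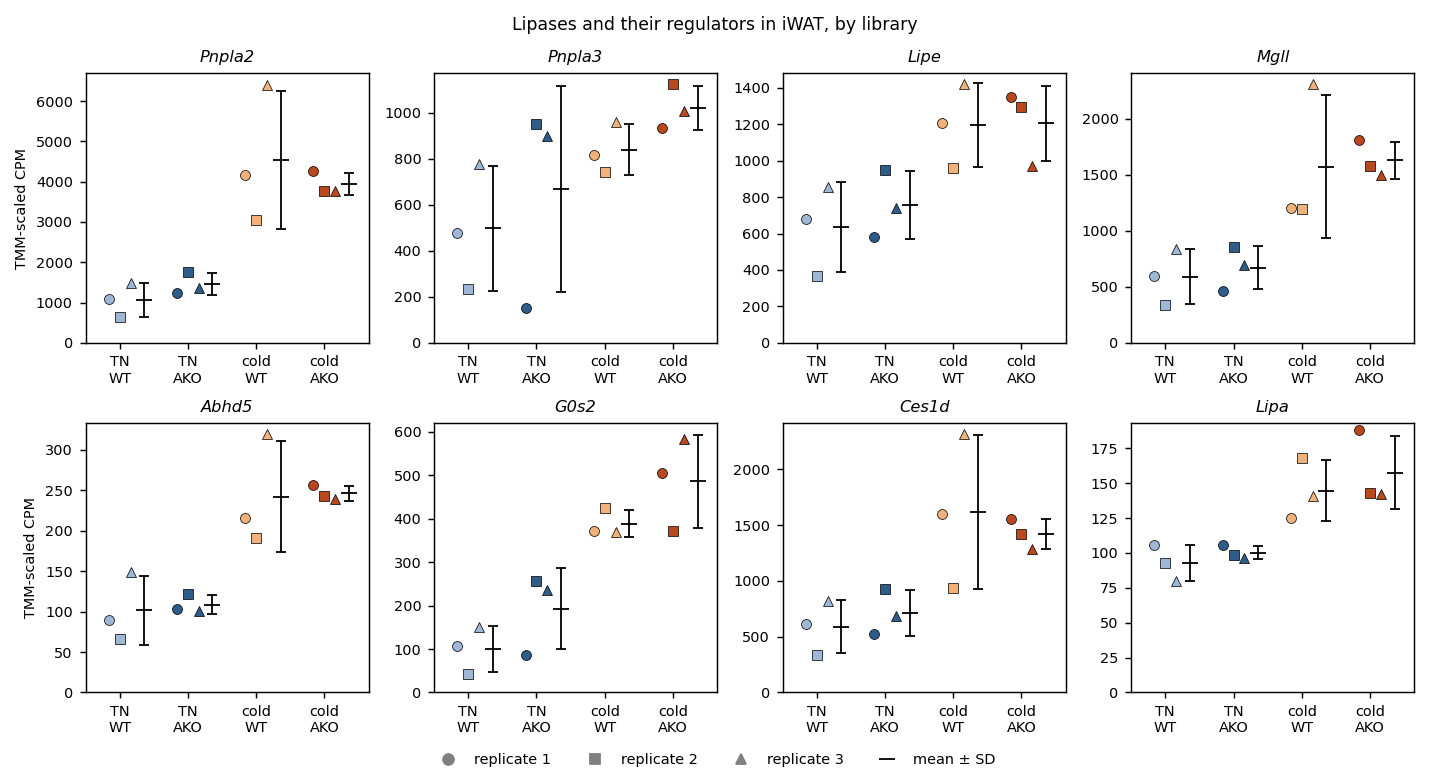
TMM-scaled CPM (vertical axes, from 0) of the 8 genes in each library of the 4 groups, with the symbol shape giving the replicate number and the black bar the mean ± SD of 3 libraries. All cold libraries lie above all TN libraries of their genotype for every gene but Pnpla3, and TN WT replicate 2 is the lowest TN WT library for every gene but Lipa.

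Pnpla2, the lipase of the first step, had the largest estimated log2 fold change among the 8 genes in both genotypes, with intervals that overlapped those of G0s2. In WT mice Pnpla2 stood at 1092, 629.8 and 1475 CPM at TN and at 4161, 3054.5 and 6405 CPM in the cold. In mice labelled HIF2α AKO it stood at 1243.5, 1767.5 and 1367 CPM at TN and at 4255, 3781 and 3773 CPM in the cold. Every cold library lay above every TN library, and cold WT replicate 3 was the highest of all 12. The level in WT was 4.26-fold higher in the cold, with a 95% confidence interval from 2.54 to 7.16 (log2 fold change 2.09, SE 0.34, edgeR adjusted p = 0.00256). In HIF2α AKO it was 2.70-fold higher, with an interval from 1.62 to 4.48 (log2 fold change 1.43, SE 0.33, edgeR adjusted p = 0.0119). The latter call was lost without TN HIF2α AKO replicate 1 (log2 fold change 1.33, edgeR adjusted p = 0.0546).

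Abhd5 encodes the coactivator of ATGL, also called CGI-58. Its level in WT mice was 89.1, 66.2 and 149 CPM at TN and 215, 191 and 320.0 CPM in the cold. Under the HIF2α AKO label it was 103, 122 and 101 CPM at TN and 257, 242 and 239 CPM in the cold. The cold libraries lay above the TN libraries in both genotypes, and those labelled HIF2α AKO differed among themselves by at most 1.07-fold in the cold. Abhd5 was 2.39-fold higher in the cold in WT (log2 interval 0.67 to 1.85, edgeR adjusted p = 0.0092) and 2.26-fold higher in HIF2α AKO (log2 interval 0.59 to 1.77, edgeR adjusted p = 0.0106).

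G0s2 encodes the inhibitor of ATGL, and it rose together with its target. In WT mice its level was 108, 43.4 and 149.7 CPM at TN and 371, 426 and 369.8 CPM in the cold. The libraries labelled HIF2α AKO stood at 86.1, 257 and 237 CPM at TN and 505, 371 and 583 CPM in the cold. The groups did not overlap between temperatures in either genotype, and TN HIF2α AKO replicate 1 lay well below the other 2 libraries of its group. G0s2 was 3.88-fold higher in the cold in WT (interval 1.94 to 7.75, edgeR adjusted p = 0.0133) and 2.51-fold higher in HIF2α AKO (interval 1.28 to 4.96, edgeR adjusted p = 0.0471). The HIF2α AKO call lay close to the limit and was lost without any of 9 of the 12 libraries, left out one at a time, with edgeR adjusted p-values of up to 0.138 without TN HIF2α AKO replicate 1.

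Lipe, which encodes HSL, the diglyceride lipase and a main substrate of PKA, stood at 681, 369 and 855 CPM in TN WT mice and at 1207, 959 and 1421 CPM in cold WT mice. Lipe stood in HIF2α AKO at 578, 951 and 739.7 CPM at TN and at 1348, 1294 and 970.0 CPM in the cold. The ranges of TN and cold did not overlap, but in HIF2α AKO the nearest pair of libraries was only 0.03 apart on the log2 scale. The log2 fold change was 0.91 in WT (SE 0.30, edgeR adjusted p = 0.0501) and 0.67 in HIF2α AKO (SE 0.30, edgeR adjusted p = 0.109), so neither passed the limit. The WT value passed it with DESeq2 (adjusted p = 0.0119) and with limma voom and sample quality weights (adjusted p = 0.0208), and voom also called the HIF2α AKO value (0.70, adjusted p = 0.0296).

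Mgll encodes the monoglyceride lipase of the last step. In WT mice its level was 597, 339.5 and 835 CPM at TN and 1205, 1197 and 2307 CPM in the cold. For HIF2α AKO the levels were 465, 850.4 and 694 CPM at TN and 1809.6, 1577 and 1494 CPM in the cold. All cold libraries exceeded all TN libraries, and cold WT replicate 3 stood nearly alone at the top. Mgll was 2.66-fold higher in the cold in WT (interval 1.54 to 4.59, edgeR adjusted p = 0.0196) and 2.43-fold higher in HIF2α AKO (interval 1.41 to 4.18, edgeR adjusted p = 0.0246). The WT call was lost in edgeR without cold WT replicate 3 (adjusted p = 0.0825), TN WT replicate 1 (0.0603) or TN WT replicate 2 (0.069). In HIF2α AKO it was lost in edgeR without cold replicate 1 (adjusted p = 0.0841) or 2 (0.0521), or TN replicate 1 (0.0995) or 3 (0.0649).

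Ces1d, a carboxylesterase that hydrolyses triglyceride in adipocytes and liver, followed Mgll closely. In WT mice it stood at 616, 339 and 816 CPM at TN and at 1599.5, 939 and 2317 CPM in the cold. In mice labelled HIF2α AKO it stood at 525, 929.7 and 685 CPM at TN and at 1555, 1425 and 1288 CPM in the cold. The temperatures did not overlap within either genotype. Ces1d was 2.74-fold higher in the cold in WT (interval 1.56 to 4.81, edgeR adjusted p = 0.0195). In HIF2α AKO the fold was 1.99 (interval 1.14 to 3.48, edgeR adjusted p = 0.0628), which did not pass, although it passed with DESeq2 (adjusted p = 0.019) and with voom (adjusted p = 0.0136). The WT call was lost in edgeR without cold WT replicate 3 (adjusted p = 0.0821), TN WT replicate 1 (0.0575) or TN WT replicate 2 (0.0702).

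Lipa encodes lysosomal acid lipase, which breaks down lipid delivered to lysosomes and is abundant in macrophages as well as present in adipocytes. In WT mice its level was 106, 92.8 and 79.9 CPM at TN and 125, 168 and 141 CPM in the cold. Under the HIF2α AKO label Lipa was at 106, 98.7 and 96.7 CPM at TN and 188, 143 and 142 CPM in the cold. Lipa rose by the smallest called amount and with the narrowest intervals, 1.56-fold in WT (interval 1.24 to 1.95, edgeR adjusted p = 0.0133) and 1.57-fold in HIF2α AKO (interval 1.25 to 1.97, edgeR adjusted p = 0.0106). The WT call of Lipa was lost in edgeR without cold WT replicate 2 (adjusted p = 0.0579) or TN WT replicate 2 (0.0569). Macrophage markers summed to between 1743 and 3018 CPM at TN and between 1477 and 2904 CPM in the cold. In WT 0 of 12 markers were called, and in HIF2α AKO 3 of 12 were called lower in the cold. Of all 15306 tested genes, 1757 were called lower in HIF2α AKO. The part of macrophages in the Lipa values was not tested.

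Pnpla3 encodes a relative of ATGL that sits on lipid droplets and is known in liver for its control by feeding. In WT mice it stood at 479, 234 and 778 CPM at TN and at 816, 743 and 960.2 CPM in the cold. In mice labelled HIF2α AKO it stood at 151, 951 and 900.1 CPM at TN and at 935, 1123 and 1006.5 CPM in the cold. It was the single member whose TN and cold ranges overlapped, and TN HIF2α AKO replicate 1 was 6.31-fold below the highest library of its group. The log2 fold change was 0.76 in WT (SE 0.56, edgeR adjusted p = 0.328) and 0.61 in HIF2α AKO (SE 0.56, edgeR adjusted p = 0.421). The interval in WT, from 0.719- to 3.97-fold, holds no change and the folds of the other lipases except that of Pnpla2, at 4.26-fold. The interval in HIF2α AKO, from 0.652- to 3.59-fold, holds both no change and the folds of the other lipases.

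**Figure D2:**
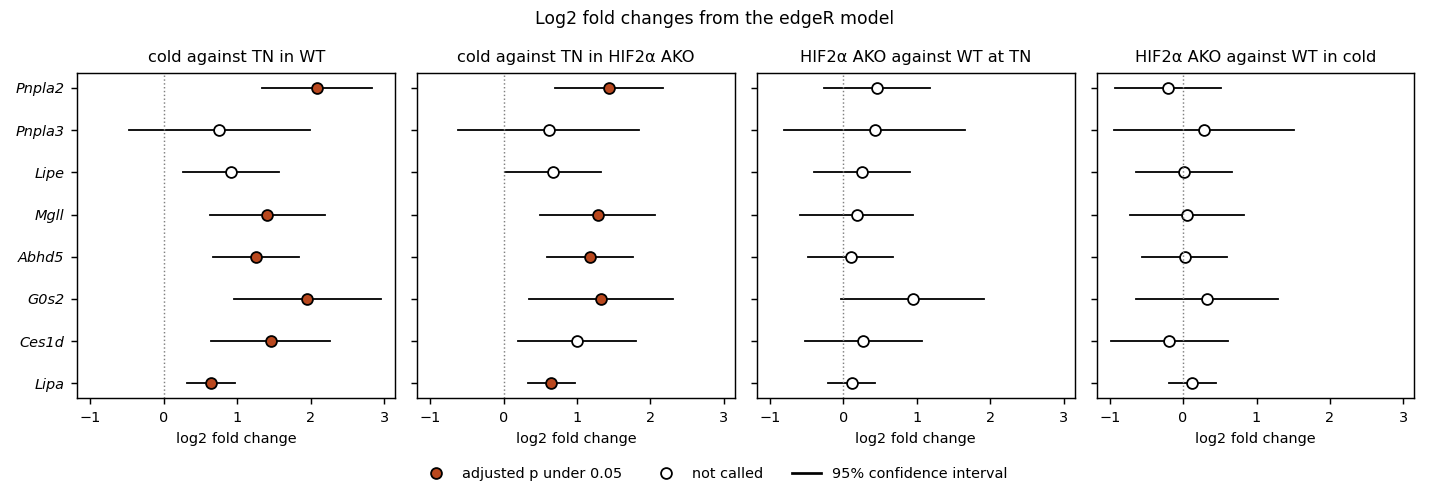
Log2 fold changes of the 8 genes (points) with 95% confidence intervals (bars) from the edgeR model of 4 groups, with filled points for an adjusted p under 0.05 and the dotted line at 0. Cold against TN is called for 6 genes in WT and 5 in HIF2α AKO, and no gene is called for HIF2α AKO against WT.

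All 3 cold libraries lay above all 3 TN libraries for 7 of the 8 genes in WT, against 22.7% of all tested genes, and for 7 of 8 in HIF2α AKO, against 24.9%. Summed over the 8 genes, raw counts made up between 0.253 and 0.606% of the gene counts of a TN library and between 0.760 and 1.18% of those of a cold library. Of the 9 white adipocyte markers, 6 were called higher in the cold in WT and 3 in HIF2α AKO. Over all tested genes the share was 15.6% in each genotype. The 9 did not move together in HIF2α AKO, where 7 estimates were positive. There the mean of Lpl went from 4207 to 9255.5 CPM, that of Cfd from 11227 to 8525 and that of Adipoq from 1582 to 1571. Cfd and Lpl had the highest levels in every group, and these 3 genes were named after their values were seen. Scaled to the summed white adipocyte markers in place of TMM, an alternative chosen after seeing the data, Pnpla2 alone was called, with log2 fold changes of 1.35 in WT and 1.04 in HIF2α AKO, and Lipa in WT turned to -0.09. Over all genes, calls in either direction numbered 311 in WT and 440 in HIF2α AKO with this scaling, beside 3259 and 4138 with TMM. The part of adipocyte content in the rises was not tested further. Without TN WT replicate 2 and TN HIF2α AKO replicate 1, the libraries with the lowest adipocyte markers, 3 members were called in WT, and 1584 genes in all. Without TN HIF2α AKO replicate 2 and cold HIF2α AKO replicate 1, the libraries with skeletal muscle markers, 0 members were called in HIF2α AKO, where 2 libraries per group were left. In that fit 1514 genes were called in all, and the lowest edgeR adjusted p among the members was 0.0544, for Pnpla2 at a log2 fold change of 1.53. Each of these exclusions was likewise chosen after seeing the data.

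Levels of different genes were compared per length, as CPM per kilobase of merged exons. In cold WT iWAT, Pnpla2 was highest at 1503 ± 565 (SD, n = 3) CPM per kb, and its libraries did not overlap with those of Ces1d, the next gene, at 683 ± 291 (SD, n = 3). Pnpla3 at 543 ± 71.3 (SD, n = 3), G0s2 at 446 ± 36.7 (SD, n = 3), Mgll at 309 ± 126 (SD, n = 3) and Lipe at 203 ± 39.3 (SD, n = 3) CPM per kb followed, with each gene overlapping the next. Abhd5 at 40.7 ± 11.5 (SD, n = 3) and Lipa at 21.3 ± 3.23 (SD, n = 3) CPM per kb were lowest and separate from Lipe and from each other. In TN WT iWAT the order began with Pnpla2 at 353 ± 140 (SD, n = 3), Pnpla3 at 321 ± 176 (SD, n = 3) and Ces1d at 249 ± 101 (SD, n = 3) CPM per kb, and all neighbours down to Lipe overlapped. Abhd5 at 17.0 ± 7.17 (SD, n = 3) and Lipa at 13.7 ± 1.90 (SD, n = 3) were again lowest. The coactivator was thus far below its lipase per length at both temperatures, whereas the inhibitor G0s2 stood at 115 ± 61.5 (SD, n = 3) CPM per kb at TN.

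**Figure D3:**
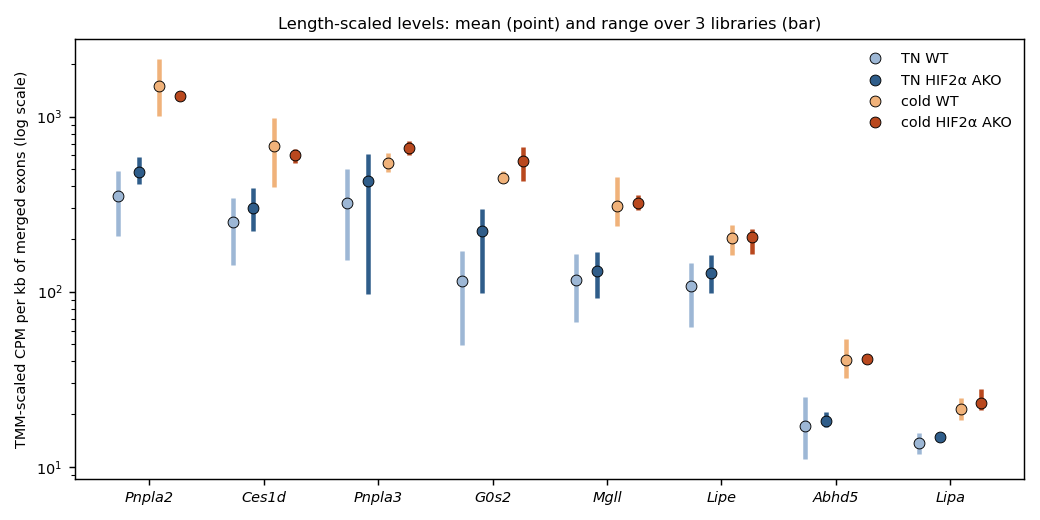
Mean (points) and range over 3 libraries (bars) of TMM-scaled CPM per kilobase of merged exons on a log scale, for the 8 genes ordered by their mean in cold WT. Pnpla2 is highest in the cold at 1503 CPM per kb in WT and 1303 in HIF2α AKO, and Abhd5 and Lipa are lowest in all 4 groups.

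The order was similar in iWAT labelled HIF2α AKO. In the cold, Pnpla2 at 1303 ± 91.4 (SD, n = 3) CPM per kb was separate from Pnpla3 at 659.9 ± 61.5 (SD, n = 3). Pnpla3 overlapped with Ces1d at 600.5 ± 56.3 (SD, n = 3), and Ces1d with G0s2 at 558 ± 123 (SD, n = 3), which was separate from Mgll. Mgll at 320.5 ± 32.2 (SD, n = 3), Lipe at 205 ± 34.7 (SD, n = 3), Abhd5 at 41.3 ± 1.57 (SD, n = 3) and Lipa at 23.3 ± 3.85 (SD, n = 3) each lay apart from the next.

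Whether the steps of the cascade shifted against each other was tested with ratios of counts within a library, which no scaling between libraries can change. Against Lipe and Abhd5, Pnpla2 gained in the cold, whereas its ratio to the inhibitor G0s2 did not shift in one direction. Lipe fell relative to Pnpla2 by 0.94 on the log2 scale in the cold (two-sided exact permutation of temperature within genotype, 400 arrangements, p = 0.005, adjusted p = 0.01 over 6 ratios). At TN the ratio of Lipe to Pnpla2 counts was 0.623, 0.585 and 0.579 in WT and 0.465, 0.538 and 0.541 in HIF2α AKO. In the cold it was 0.290, 0.314 and 0.222 in WT and 0.317, 0.342 and 0.257 in HIF2α AKO. All 6 cold libraries were below all 6 TN libraries.

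The ratio of Pnpla2 to Abhd5, the lipase against its coactivator, was 0.53 higher on the log2 scale in the cold (exact permutation p = 0.005, adjusted p = 0.01). It rose by 0.81 in WT and by 0.26 in HIF2α AKO, and the cold libraries lay above the TN libraries in both genotypes. The ratio of Mgll to Lipe, the third step against the second, was 0.54 higher in the cold (exact permutation p = 0.005, adjusted p = 0.01), with counts of Mgll at 0.805 to 0.977 of those of Lipe at TN and at 0.999 to 1.62 in the cold. For these 3 ratios, 0.005 is the smallest p that the 400 arrangements can give. Plin1, the droplet coat protein that holds the coactivator back until PKA acts, had a ratio to Abhd5 that was lower by -0.48 in the cold (exact permutation p = 0.015, adjusted p = 0.0225), a call that medians in place of means did not keep (-0.50, adjusted p = 0.144) and that was lost without any of 11 of the 12 libraries. TN HIF2α AKO replicate 1, at a log2 ratio of 2.55, lay among the cold libraries in this ratio.

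For Pnpla2 against G0s2, the lipase against its inhibitor, the log2 ratio in WT was 3.34, 3.86 and 3.30 at TN and 3.49, 2.84 and 4.11 in the cold. In HIF2α AKO it was 3.85, 2.78 and 2.53 at TN and 3.08, 3.35 and 2.70 in the cold. The difference between temperatures was -0.02 (exact permutation p = 0.95), and the ranges overlapped throughout, with spreads of up to 0.70 (SD, n = 3) within a group that leave room for shifts of that size. The ratio of Pnpla3 to Pnpla2 was lower by -0.81 in the cold (exact permutation p = 0.085, adjusted p = 0.102). Its TN HIF2α AKO replicate 1 stood at -3.05 against -0.89 and -0.60 in the other 2 libraries, and without that library the difference was -1.20 (exact permutation, adjusted p = 0.006).

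**Figure D4:**
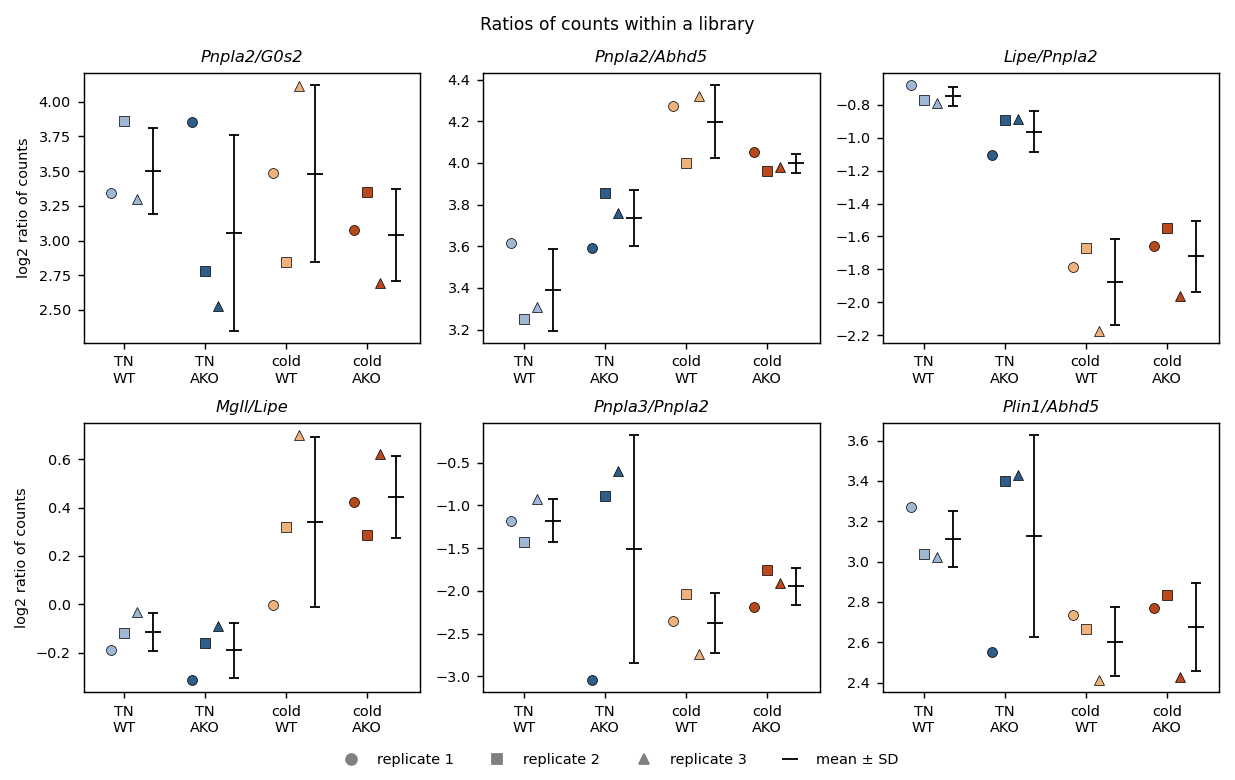
Log2 ratios of the counts of 2 genes within each library (vertical axes, each with its own range), by group, with the replicate number as symbol shape and the mean ± SD of 3 libraries in black. Lipe/Pnpla2 separates all 6 cold from all 6 TN libraries, whereas Pnpla2/G0s2 overlaps between all 4 groups.

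Pnpla2 alone made up 29.2 ± 0.57% (SD, n = 3) of the counts of the 8 genes in TN WT libraries and 42.6 ± 2.61% (SD, n = 3) in cold WT libraries. Under the HIF2α AKO label its share was 32.1 ± 5.30% (SD, n = 3) at TN and 39.0 ± 0.91% (SD, n = 3) in the cold. The share of Lipe was 17.4 ± 0.72% (SD, n = 3) at TN and 11.6 ± 1.44% (SD, n = 3) in the cold in WT, and 16.4 ± 1.24% (SD, n = 3) and 11.9 ± 1.47% (SD, n = 3) in HIF2α AKO. Mgll kept a share between 14.3 and 16.1% in the group means.

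Between genotypes, the question was whether the lipases or their regulators differed under the HIF2α AKO label. None of the 8 genes passed the test in the cold or at TN, where 0.00653% of all tested genes were called in either comparison. Upon cold, the log2 fold changes of HIF2α AKO against WT ran from -0.21 for Pnpla2 to 0.32 for G0s2, and 6 of 8 were positive. At TN they ran from 0.10 for Abhd5 to 0.95 for G0s2, and 8 of 8 were positive, although Mgll (-0.02), Abhd5 (-0.08) and Lipa (-0.16) turned negative when scaled to the white adipocyte markers. Ranges of the genotypes overlapped for all 8 genes at both temperatures.

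G0s2 had the largest genotype difference at both temperatures. At TN its mean was 193 ± 93.4 CPM in HIF2α AKO and 100.3 ± 53.5 CPM in WT (SD, n = 3), a log2 fold change of 0.95 (SE 0.44, interval -0.03 to 1.92). The unadjusted p was 0.0554 and the adjusted p 0.999 in edgeR's quasi-likelihood test, and 2 of 3 HIF2α AKO libraries lay above all WT libraries. In the cold the means were 486 ± 107 CPM and 389 ± 31.9 CPM (SD, n = 3), a log2 fold change of 0.32 (SE 0.44, interval -0.64 to 1.29). The log2 ratio of Pnpla2 to G0s2 was lower in HIF2α AKO by -0.44 over both temperatures (two-sided exact permutation of genotype within temperature, p = 0.14, adjusted p = 0.84 over 6 ratios). The other 5 ratios had adjusted p-values of 0.965 by the same exact permutation.

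Pnpla2 itself stood at 3936 ± 276 CPM in cold HIF2α AKO and at 4540 ± 1707 CPM in cold WT (SD, n = 3), with a fold of 0.867 and an interval from 0.527 to 1.43. At TN the fold was 1.37 with an interval from 0.831 to 2.26. For Lipe, Mgll and Abhd5, the fold in the cold was 1.01 (interval 0.642 to 1.58), 1.04 (interval 0.607 to 1.77) and 1.02 (interval 0.679 to 1.52). Lipa had the narrowest interval, from 0.871 to 1.37 around a fold of 1.09, and Pnpla3 the widest, from 0.519 to 2.85 around 1.22. These intervals bound the genotype difference and do not show that it is nil.

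The response to cold was compared between genotypes with the interaction term of the same model. No member passed, nor did any gene of the table, a called share of 0%, while 327 genes had an unadjusted p under 0.05. The largest interaction was that of Pnpla2, at -0.66 (SE 0.46, unadjusted p = 0.182 in edgeR's quasi-likelihood test), followed by G0s2 at -0.62 (SE 0.62, unadjusted p = 0.335). For 7 of the 8 genes the estimated rise was smaller in HIF2α AKO, the exception being Lipa at 0.01. This sign was not particular to the lipases. The interaction was positive for 0 of 9 white adipocyte and 0 of 12 macrophage markers, but for 12 of 12 skeletal muscle and 7 of 7 epithelial markers. Over single libraries left out, it ran from -0.97 to -0.33 for Pnpla2 and from -1.03 to -0.25 for G0s2. The rise of Ces1d passed the limit in WT and not in HIF2α AKO, but its interaction was -0.46 (SE 0.51, edgeR unadjusted p = 0.388). Averaged over both temperatures, no member passed, beside 0.00653% of all genes, and G0s2 was highest at 0.63 (SE 0.31, unadjusted p = 0.0659, adjusted p = 1 in edgeR).

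Counts of 0 were also found with other tools. DESeq2 called 0 members in each of these 4 genotype comparisons, with 7 genes called in all in the cold, 11 at TN, 0 for the interaction and 12 for the average. Voom called 0 members and 2, 2, 0 and 4 genes. At an unadjusted p under 0.05, edgeR passed 0 members in each, with 451 genes in the cold, 446 at TN and 557 for the average. For its DESeq2 comparison of the genotypes in the cold, the study set looser limits. These were p below 0.15 before adjustment and a log2 change of more than 0.2 either way. With these limits applied here to edgeR's p-values, 0 members passed in the cold, where 8.98% of all genes did. At TN, G0s2 passed, where 8.63% of all genes did.

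The wider pathway was described with 6 lists of genes that act before, beside or after these lipases. Over all tested genes, 15.6% were called higher in the cold in WT and 15.6% in HIF2α AKO, and the counts of each list are to be read beside these shares. Among 13 genes of lipolytic signalling, 5 rose in the cold in WT and 6 rose in HIF2α AKO. Adcy3, an adenylyl cyclase, rose from 35.2 ± 2.12 to 184 ± 33.6 CPM in WT (SD, n = 3), a log2 fold change of 2.39 (edgeR adjusted p = 0.000125). Prkar2b, the PKA regulatory subunit typical of adipocytes, rose by 1.78 on the log2 scale (edgeR adjusted p = 0.00611), and Adrb1 by 1.21 (edgeR adjusted p = 0.0325) at no more than 12.4 CPM in any library. Adrb3, the main β-adrenergic receptor of mouse adipocytes, did not pass in WT (-0.90, edgeR adjusted p = 0.145). Prkaca, which encodes PKA Cα, the catalytic subunit that the study follows, rose by 1.20 in WT (edgeR adjusted p = 0.00932) and by 1.35 in HIF2α AKO (edgeR adjusted p = 0.00471), and HIF2α AKO against WT stood at 0.30 in the cold (SE 0.25, edgeR adjusted p = 1). Prkaca and Adrb3, and Plin1 and Cidec in the list of droplet proteins, were named after their values were seen. The median of the list was 0.48 in WT and 0.26 in HIF2α AKO, with all tested genes at -0.03 and -0.05.

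Of 12 tested genes of antilipolytic signalling, 2 rose in WT and 1 in HIF2α AKO, counts near or below the 15.6% of all tested genes that were higher in the cold. By its calls the list thus does not stand out. Its median log2 fold change was 0.35 in WT and 0.44 in HIF2α AKO, beside -0.03 and -0.05 over all tested genes. Adora1, the adenosine receptor that lowers cyclic AMP in adipocytes, rose by 1.32 in WT (edgeR adjusted p = 0.0443), and Insr, the insulin receptor, by 0.62 (edgeR adjusted p = 0.0304).

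Droplet proteins that gate lipases shifted with Pnpla2, with 6 of 10 higher in WT, 5 of 10 higher in HIF2α AKO and 0 lower. Cidea, a droplet protein of thermogenic adipocytes, rose from 26.3 ± 16.6 to 615 ± 123 CPM in WT (SD, n = 3), a log2 fold change of 4.54 (edgeR adjusted p = 0.000706). Plin5, which binds ATGL and its coactivator at droplets of oxidative cells, rose by 3.75 (edgeR adjusted p = 0.000871), and Plin2 by 1.97 (edgeR adjusted p = 0.00868). Plin1 was at 0.73 (edgeR adjusted p = 0.117). Cidec, the droplet protein of white adipocytes, rose by 1.87 in WT (edgeR adjusted p = 0.0104) and was at 0.81 in HIF2α AKO (edgeR adjusted p = 0.144), with an interaction of -1.06 (edgeR unadjusted p = 0.086).

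Among 16 tested genes of other neutral lipid hydrolases, 6 rose in WT, 4 rose in HIF2α AKO and 0 fell. Abhd6, a further monoglyceride lipase, rose by 1.95 (edgeR adjusted p = 0.000532), and Ddhd2 by 1.46 (edgeR adjusted p = 0.00297). Ces1e, a relative of Ces1d, rose by 1.99 (edgeR adjusted p = 0.0348), at levels under 1 CPM in every library.

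Among genes that handle the products, fatty acids and glycerol, 6 of 12 were higher in WT and 7 of 12 in HIF2α AKO, with medians of 1.45 and 1.39. Fabp3, a fatty acid binding protein of oxidative tissue, rose from 0.319 ± 0.189 to 431 ± 138 CPM in WT (SD, n = 3), a log2 fold change of 10.39 (edgeR adjusted p = 1.99e-05) over TN counts of 4 to 15 reads. Acsl1, which activates fatty acids, rose by 2.03 (edgeR adjusted p = 0.00439). Cpt1b, the muscle-type carnitine transferase, rose by 2.38 (edgeR adjusted p = 0.00114) at no more than 4.2 CPM.

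Of 14 genes of lysosomes and lipophagy, the surroundings of Lipa, 5 rose in WT, and in HIF2α AKO 3 rose and 2 fell. The HIF2α AKO counts lie near the shares of all 15306 tested genes, of which 2381 were called higher and 1757 lower. Ctsd rose by 0.98 (edgeR adjusted p = 0.0166), Lamp1 by 0.60 (edgeR adjusted p = 0.0147) and Mcoln1 by 0.41 (edgeR adjusted p = 0.0155). The median of this list was 0.30 in WT. None of the genes of the 6 lists was called between genotypes at either temperature.

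**Figure D5:**
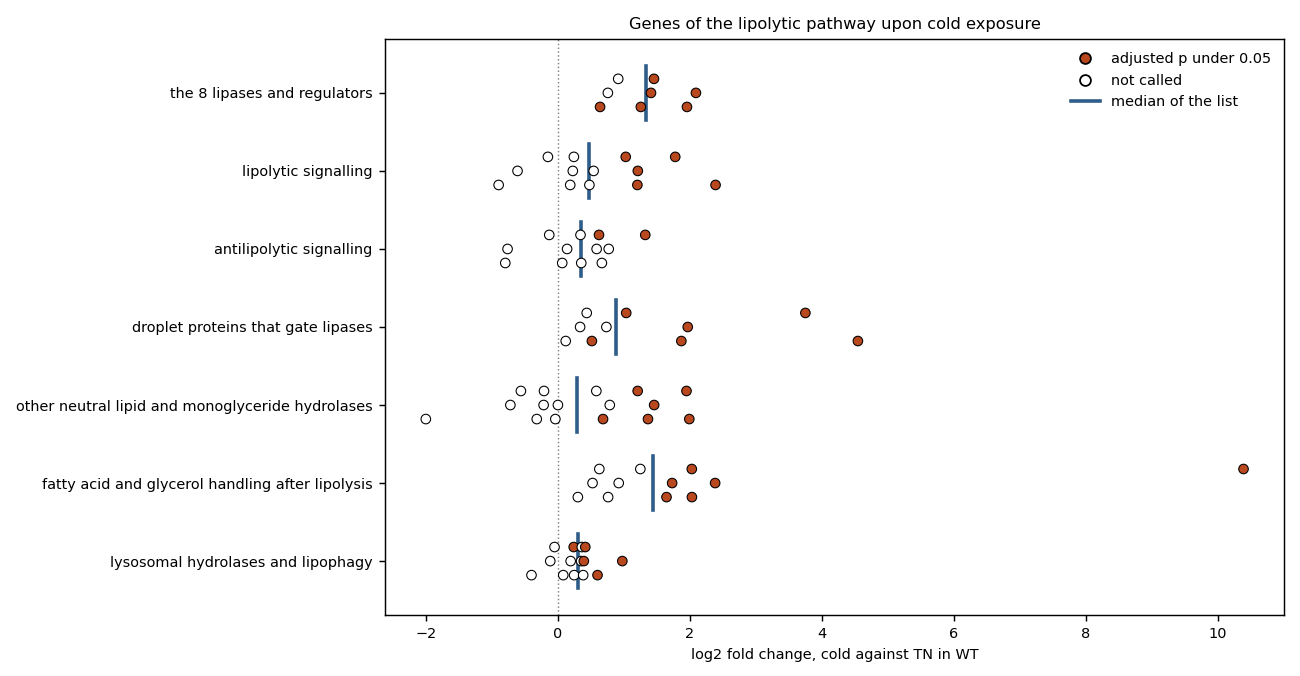
Log2 fold change of cold against TN in WT for each tested gene (points, spread vertically for visibility) of the 8 lipases and regulators and of 6 pathway lists, with filled points for an edgeR adjusted p under 0.05 and a bar at the median of each list. The medians are 1.33 for the 8 genes, 1.45 for fatty acid and glycerol handling and 0.30 for lysosomal genes, and the point at 10.39 is Fabp3.

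Among the 8 genes, log2 CPM varied together over the 12 libraries, with Pearson r between 0.40 and 0.98 over the 28 pairs. With each group's mean taken off, the 21 pairs without Lipa still had r between 0.52 and 0.98, and the lowest over all pairs was -0.35. These points share libraries, temperature and adipocyte content, so the values are a description. The genes most like Pnpla2 among 13143 genes with a mean count of at least 50 were Nr1h3, Acaa1b and Asns, each with r = 0.99 over 12 libraries and between 0.95 and 0.97 with group means taken off. For Mgll they were Lpl, Dolk and Pitpnb (r = 0.99 each), for Ces1d Gphn, Adhfe1 and Aamp (r = 0.99 each), and for Lipe Fam213a, Epb4.1l1 and Pla2g16 (r = 0.98 to 0.99). For G0s2 they were Hk2, Srebf1 and Fam89b (r = 0.97 each), and for Abhd5 Csnk2b, Ppme1 and Pex19 (r = 0.98 to 0.99). Pnpla3 was closest to Rtn4rl1, Trabd2b and Cdkn2c (r = 0.96 to 0.98), and Lipa to St3gal5, Ddx3x and Slc6a6 (r = 0.96 each).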

How the data were processed

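RNA-seq of iWAT from 12 mice, 3 in each of 4 groups, was read from a table of counts per gene. The authors trimmed reads with Trim Galore 0.4.4, aligned them with STAR 2.6.1d to GRCm38/mm10 and counted them with HTSeq 0.13.5, as the paper's methods and the submitters' processing notes give it, and deposited the whole-number counts without normalization. The annotation and strand setting were not given in the sources used here. The 5 tally rows that name no gene, 21.9 to 27.0% of each library's total, were left out.

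Here, genes were filtered with filterByExpr (minimum count 10, minimum total 15), libraries were scaled by TMM, and 1 model of the 4 groups was fitted with edgeR 4.0.16 in R 4.3.3. Each of 6 contrasts was tested with the quasi-likelihood F test and Benjamini-Hochberg adjustment over 15306 genes at a limit of 0.05. SEs were taken as the log2 fold change over the root of F. The common biological coefficient of variation was 0.202. Count ratios were tested by exact permutation within strata. CPM per kb used merged exons of GENCODE vM21. DESeq2 1.42.0, limma 3.58.1 (voom), other scalings, no filter, single contrasts, the replicate block and leaving out libraries were alternatives. Replicates were separate mice by the labels. Between 22368316 and 35204631 counts stood behind each library.

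The genes, pathway lists and markers were chosen with earlier results of these data known. Named were all 8 members in every contrast, from each pathway list those called for cold against TN in WT with the strongest changes, at most 3 in each direction, for each member the 3 genes of highest Pearson r over the 12 libraries with a mean count of at least 50, Epas1 and Ucp1. Other genes are said to be chosen afterwards. Protein sequences were not used here, and 1 result of the lipolytic signalling list is not reported here.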

Additional observations from a re-analysis of the deposited data

How the results depend on the processing

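With 3 mice in a group, whole tissue and gene-level counts, calls near the limit moved with single libraries, and genotype differences of the size of the intervals given were not resolved. DESeq2 called 7 members in WT and 6 in HIF2α AKO for cold against TN, and voom 7 and 7. Over all genes, in either direction, DESeq2 called 4591 and 5279 and voom 4684 and 6140, beside 3259 and 4138 in the main fit. The counts of members below are to be read beside such counts over all genes. Fitting only the libraries of the contrast left 3 members in WT (Pnpla2, G0s2 and Lipa), with 1752 genes called in all. Leaving out the pair of libraries lowest in adipocyte markers, 3 were called in WT (Pnpla2, G0s2 and Abhd5), with 1584 genes in all. Leaving out the pair with muscle markers, 0 were called in HIF2α AKO, with 1514 genes in all. Scaled to white adipocyte markers, 1 was called in WT and 1 in HIF2α AKO, with 311 and 440 genes in all. Under the study's limits, applied to edgeR, 1 member passed for HIF2α AKO against WT at TN and 1 for the average, with 1321 and 1223 genes in all. Both exclusions of a pair of libraries and the scaling to markers were chosen after seeing the data, and the cause of these shifts was not tested.

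The labels do not say whether replicate numbers pair mice across groups. Of 18 pairs of same-numbered libraries, 5 had deviations from their group means correlated above 0.1 (r from -0.43 to 0.39), which does not settle it. With the replicate block, 6 members were called in WT and 4 in HIF2α AKO, where G0s2 was lost (1.34, edgeR adjusted p = 0.0628), and 0 in each genotype comparison.

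Leaving out 1 library at a time gave 3 to 7 members in WT, the lowest in the absence of TN WT replicate 2 and the highest in that of TN HIF2α AKO replicate 1. In HIF2α AKO it gave 2 to 7, with the same libraries in the opposite roles. Leaving out single libraries gave 0 members throughout the genotype comparisons.

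The values below turned sign, except Plin1/Abhd5, which is given last. Among those that turned, only Lipa in WT had passed its test as reported. Scaled to white adipocyte markers, Lipa in WT was -0.088 for cold against TN, and at TN HIF2α AKO against WT was -0.017 for Mgll, -0.075 for Abhd5 and -0.16 for Lipa. With voom, HIF2α AKO against WT was 0.015 for Pnpla2 and 0.082 for Ces1d in the cold, and -0.039 for Lipa at TN. Without the muscle-marker libraries it was -0.079 for Lipe, -0.032 for Mgll, -0.0093 for Abhd5 and -0.019 for Lipa in the cold, and -0.026 for Mgll at TN. Without the libraries low in adipocyte markers, Abhd5 at TN was -0.095. With medians of log2 ratios, Pnpla2/G0s2 was 0.22 for cold against TN and Lipe/Pnpla2 was 0.0028 between genotypes. Plin1/Abhd5 kept its sign with medians, at -0.50, but lost its call (exact permutation, adjusted p = 0.144).

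Over single libraries left out, HIF2α AKO against WT in the cold ran from -0.40 to 0.13 for Pnpla2, -0.094 to 0.15 for Lipe, -0.11 to 0.44 for Mgll, -0.093 to 0.28 for Abhd5, -0.43 to 0.16 for Ces1d and -0.019 to 0.28 for Lipa. At TN it ran from -0.023 to 0.53 for Lipe, -0.097 to 0.52 for Mgll, -0.13 to 0.48 for Abhd5 and -0.0057 to 0.58 for Ces1d, with the low ends without TN WT replicate 2, and for the average from -0.0029 to 0.29 for Pnpla2. For cold against TN, Pnpla2/G0s2 ran from -0.17 to 0.18, Pnpla3/Pnpla2 from -1.20 to -0.59 and Plin1/Abhd5 from -0.62 to -0.40. Between genotypes, Lipe/Pnpla2 ran from -0.10 to 0.030, Mgll/Lipe from -0.070 to 0.11, Pnpla3/Pnpla2 from -0.18 to 0.43 and Plin1/Abhd5 from -0.031 to 0.19.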
